A study of Arabidopsis thaliana with 6 samples.

Results

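The genes described here are those carried by the mitochondrial genome of Arabidopsis thaliana. They were taken as every probe set that the platform annotation assigns to 1 gene only and whose symbol begins with nad, cox, cob, ccb, ccm, orf, matR or mtt, or whose locus tag begins with ArthMp. The rule found 23 probe sets for 16 genes among 22746 non-control probe sets on the Affymetrix ATH1 array. The nad symbols gave 15 probe sets of 8 genes, the cox symbols 2, the ccb symbols 4, and orfX and matR 1 each, while cob, ccm, mtt and ArthMp gave 0. All 23 probe sets matched a mitochondrial gene of the TAIR10.1 table by symbol or synonym, out of 32 protein-coding mitochondrial symbols in that table. None of the 23 was removed by a filter on low signal.

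The study used EBE-XVE line 14, a single line in which β-estradiol induces the transcription factor EBE (AT5G61890), and wild type Col-0 (WT), to find genes that respond early to EBE. The EBE-XVE line is in the Col-0 background. Seedlings of both genotypes were grown for 3 weeks on MS agar under a 16 h day, spent 16 h in shaken liquid MS medium, received 2 µM β-estradiol and were harvested as shoots 45 min later. The estradiol treatment was therefore common to all arrays. Each genotype had 3 biological replicates on 3 arrays, numbered 1 to 3 in the titles. No tissue-specific promoter is named in the labels, and they do not say whether a replicate pooled several seedlings.

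Plant mitochondria keep a small genome of their own, which encodes a minority of the subunits of the respiratory chain and ATP synthase together with parts of the machinery for cytochrome c maturation, protein transport, translation and intron splicing. Most subunits of the same complexes are encoded in the nucleus and imported. Mitochondrial transcripts are spliced, in some genes in trans from separate precursor RNAs, and edited from C to U before translation. In plants a poly(A) tail marks a mitochondrial RNA for degradation, and Arabidopsis chromosome 2 carries a large insertion of mitochondrial DNA.

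All signals below are the authors' deposited values, read as log2 signal. A signal is compared only with the same probe set on other arrays or with the quartiles of its own array. The median signal over all probe sets was 5.38 for EBE-XVE replicate 1 and 5.47 for WT replicate 1, and it lay between 4.44 and 4.50 on the other 4 arrays. EBE had signals of 8.55, 7.21 and 3.19 in EBE-XVE replicates 1, 2 and 3, and of 4.26, 2.98 and 3.02 in WT replicates 1, 2 and 3. The array labelled EBE-XVE replicate 3 therefore showed an EBE signal close to WT. The photosynthesis genes RCA (Rubisco activase) and LHCB4.1 (a light-harvesting protein), the 2 of 15 shoot markers with a probe set of their own, had signals from 13.10 to 14.20 on all 6 arrays. Of 11 root markers 5 were measured. EXPA7, EXPA18, AT1G30870 and AT5G17820 stayed between 1.75 and 2.24, whereas PYK10, a root-abundant β-glucosidase, read 12.14, 8.75 and 9.21 in EBE-XVE replicates 1, 2 and 3 and 12.26, 8.58 and 8.81 in WT replicates 1, 2 and 3. The root marker PYK10 thus moved with replicate number, and its part in the results below was not tested.

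The replicate numbers occur in both genotypes, and replicate 1 of both genotypes differed from replicates 2 and 3 for most mitochondrial probe sets. Replicate 1 signal was higher for nad7 (6.96-fold) and nad2 (3.29-fold), and it was lower for ccb206 (4.29-fold, from a dim replicate 1 signal), one nad1 probe set (3.72-fold), cox2 (3.10-fold) and nad4 (2.54-fold). Across the 23 probe sets, 15 were lower and 4 higher in replicate 1, and 4 did not pass the test. Among all 22746 probe sets, 42.4% were called, 8.22% as lower and 34.2% as higher. The test was the moderated F test of replicate number in a limma fit of genotype plus replicate number, called at a Benjamini-Hochberg adjusted p under 0.05 over all probe sets. It takes in all differences among replicates 1, 2 and 3, so a difference between replicates 2 and 3 also adds to a call. Replicate 2 minus replicate 3 was -0.58 for nad9 and -0.54 at nad1 257324_at. The adjusted p printed beside a replicate 1 difference is that of this F test. Each difference below is the mean of replicate 1 minus the mean of replicates 2 and 3 on the log2 scale, with 2 arrays in replicate 1 and 4 in the others. What replicate 1 shares that the other replicates do not is not given in the labels, so seedling growth, extraction and array processing cannot be told apart. In whole shoots, fewer mitochondria or cells of a type and less of an RNA per cell cannot be told apart either.

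**Figure D1:**
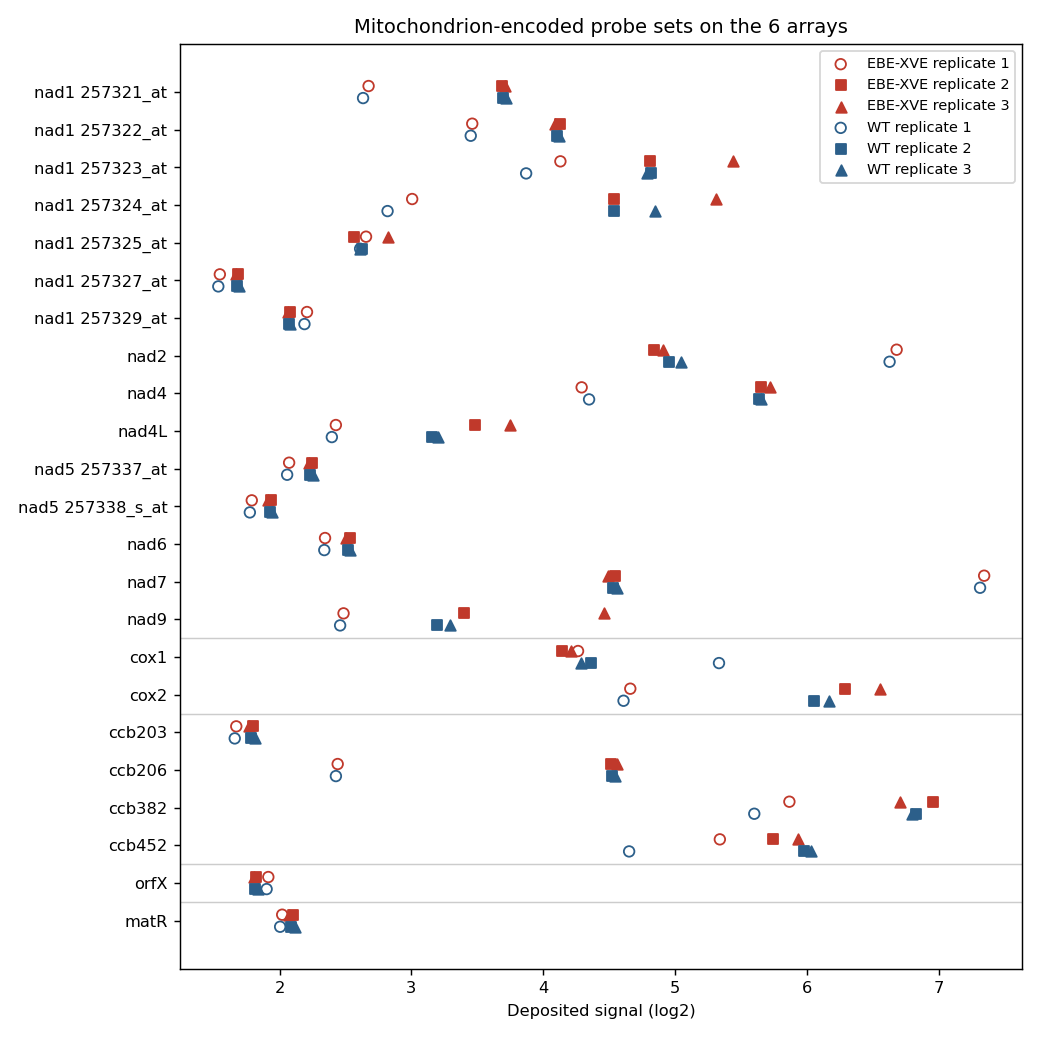
Deposited log2 signal (horizontal axis) of each of the 23 mitochondrion-encoded probe sets (rows, grouped by complex between the grey lines) on every array, with EBE-XVE in red above WT in blue and open circles for replicate 1. The open circles lie to the right of the filled ones for nad7 and nad2, at 6.63 to 7.35, and to the left for ccb206, cox2, nad4 and most nad1 probe sets.

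Complex I, the NADH dehydrogenase that feeds electrons from NADH into the respiratory chain, was represented by 15 probe sets of 8 genes. Of these, 3 were higher and 11 lower in replicate 1, and 1 did not pass the test. The products of nad7 and nad9 belong to the peripheral arm, which carries the electron path, and those of nad1, nad2, nad4, nad4L, nad5 and nad6 belong to the membrane arm, which pumps protons. The 2 peripheral-arm genes went in opposite directions.

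The nad7 probe set read 7.35 in EBE-XVE replicate 1 and 7.31 in WT replicate 1, against 4.54 and 4.49 in EBE-XVE replicates 2 and 3 and 4.53 and 4.56 in WT replicates 2 and 3. Both replicate 1 arrays thus stood above all 4 others by 2.75, a wider gap than for any other member. The difference was 2.80 ± 0.18 (SE, adjusted p = 0.00134), and 1.50% of all probe sets had a more positive one. Where each array was centred on its own median the difference was 1.84, and where the arrays were quantile normalised it was 2.01, with nad7 still higher in replicate 1.

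For nad2, replicate 1 signals were 6.68 in EBE-XVE and 6.63 in WT, against 4.84 and 4.91 in EBE-XVE replicates 2 and 3 and 4.95 and 5.05 in WT replicates 2 and 3. The arrays of the 2 sets did not overlap, and the 4 lower arrays lay close together. The difference of 1.72 ± 0.18 (SE, adjusted p = 0.00489) became 0.76 (adjusted p = 0.0331) with centring and 0.87 (adjusted p = 0.0483) with quantile normalisation. A more positive difference than that of nad2 was seen in 6.76% of all probe sets. In the TAIR10.1 gene order nad7 lies between nad5 and atp8, and nad2 between rps4 and nad6, so that the 2 genes are not neighbours.

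The other peripheral-arm gene, nad9, read 2.48 in EBE-XVE replicate 1 and 2.46 in WT replicate 1. The other arrays gave 3.40 and 4.46 in EBE-XVE replicates 2 and 3 and 3.20 and 3.29 in WT replicates 2 and 3. Replicate 1 was below every other array, and the array labelled EBE-XVE replicate 3 stood 1.07 above the next highest. The difference was -1.12 ± 0.25 (SE, adjusted p = 0.0289), but it missed the threshold with quantile normalisation (-1.37, adjusted p = 0.0694). It also missed it with limma's robust prior (adjusted p = 0.086), without the variance trend (adjusted p = 0.114) and without the genotype term (adjusted p = 0.0539).

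The membrane-arm gene nad4 read 4.29 in EBE-XVE replicate 1 and 4.35 in WT replicate 1. Its signals were 5.65 and 5.72 in EBE-XVE replicates 2 and 3 and 5.64 and 5.65 in WT replicates 2 and 3, which spanned 0.08. The difference was -1.35 ± 0.18 (SE, adjusted p = 0.00876). The small membrane-arm subunit gene nad4L read 2.43 in EBE-XVE replicate 1 and 2.40 in WT replicate 1, against 3.48 and 3.75 in EBE-XVE replicates 2 and 3 and 3.16 and 3.20 in WT replicates 2 and 3. Replicate 1 was again lowest in both genotypes, by -0.99 ± 0.12 (SE, adjusted p = 0.00666).

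The membrane-arm gene nad1, whose product lies next to the ubiquinone-binding site, had 7 probe sets, of which 5 were lower, 1 higher and 1 not called in replicate 1. The largest difference was at 257324_at, with 3.01 in EBE-XVE replicate 1 and 2.82 in WT replicate 1 against 4.54 and 5.31 in EBE-XVE replicates 2 and 3 and 4.53 and 4.85 in WT replicates 2 and 3. Its difference was -1.90 ± 0.17 (SE, adjusted p = 0.00297), and replicate 1 did not overlap the other arrays. The probe set 257321_at read 2.67 in EBE-XVE replicate 1 and 2.63 in WT replicate 1, against 3.69 and 3.71 in EBE-XVE replicates 2 and 3 and 3.69 and 3.72 in WT replicates 2 and 3.

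The genotypes were nearly superimposed at 257321_at, with a replicate 1 difference of -1.05 ± 0.09 (SE, adjusted p = 0.00300). At 257323_at the signals were 4.13 in EBE-XVE replicate 1 and 3.87 in WT replicate 1, against 4.81 and 5.44 in EBE-XVE replicates 2 and 3 and 4.82 and 4.79 in WT replicates 2 and 3. At 257322_at they were 3.46 in EBE-XVE replicate 1 and 3.45 in WT replicate 1, against 4.13 and 4.09 in EBE-XVE replicates 2 and 3 and 4.11 and 4.12 in WT replicates 2 and 3. Both probe sets were lower in replicate 1, by -0.96 ± 0.21 (SE, adjusted p = 0.0327) at 257323_at and by -0.66 ± 0.13 (SE, adjusted p = 0.0275) at 257322_at. The call at 257322_at was lost when EBE-XVE replicate 1, EBE-XVE replicate 2, WT replicate 1 or WT replicate 2 was left out. In those fits a probe set's own spread did not enter its p-value, so the loss says little about stability. The call at 257323_at was lost when EBE-XVE replicate 3 (adjusted p = 0.0728) or WT replicate 3 (adjusted p = 0.0501) was left out, and without the variance trend (adjusted p = 0.0538).

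The last 3 nad1 probe sets differed little between arrays. The probe set 257325_at read 2.66, 2.57 and 2.82 in EBE-XVE replicates 1, 2 and 3 and 2.61, 2.62 and 2.61 in WT replicates 1, 2 and 3, and was not called (-0.02 ± 0.07, SE, adjusted p = 0.449). The probe set 257327_at read 1.55, 1.69 and 1.67 in EBE-XVE replicates 1, 2 and 3 and 1.53, 1.68 and 1.69 in WT replicates 1, 2 and 3, a difference of -0.14 ± 0.01 (SE, adjusted p = 0.00399). The probe set 257329_at read 2.21, 2.08 and 2.06 in EBE-XVE replicates 1, 2 and 3 and 2.19, 2.07 and 2.08 in WT replicates 1, 2 and 3, a difference of 0.13 ± 0.02 (SE, adjusted p = 0.0217) that was 0.13 with quantile normalisation and turned to -0.83 with the common shift of centring. Probe sets of the same gene therefore disagreed in size and, at 257329_at as deposited, in direction.

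The membrane-arm genes nad5 and nad6 gave dim signals with small but repeated differences. The nad5 probe set 257337_at read 2.07, 2.25 and 2.22 in EBE-XVE replicates 1, 2 and 3 and 2.06, 2.23 and 2.25 in WT replicates 1, 2 and 3, a difference of -0.17 ± 0.03 (SE, adjusted p = 0.0120). The second nad5 probe set, 257338_s_at, read 1.79, 1.94 and 1.91 in EBE-XVE replicates 1, 2 and 3 and 1.77, 1.92 and 1.95 in WT replicates 1, 2 and 3, a difference of -0.15 ± 0.02 (SE, adjusted p = 0.00780). The nad6 probe set read 2.34, 2.53 and 2.50 in EBE-XVE replicates 1, 2 and 3 and 2.34, 2.52 and 2.53 in WT replicates 1, 2 and 3, a difference of -0.18 ± 0.04 (SE, adjusted p = 0.0290). Replicate 1 was lowest in each of these, by at most 0.18.

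Complex IV, the cytochrome c oxidase that passes electrons to oxygen, was represented by 2 genes that behaved differently. The cox2 probe set, for the subunit that accepts electrons from cytochrome c, read 4.66 in EBE-XVE replicate 1 and 4.61 in WT replicate 1, against 6.29 and 6.56 in EBE-XVE replicates 2 and 3 and 6.05 and 6.17 in WT replicates 2 and 3. Replicate 1 was lower by -1.63 ± 0.19 (SE, adjusted p = 0.00584). The cox1 probe set, for the catalytic subunit, read 4.26, 4.14 and 4.21 in EBE-XVE replicates 1, 2 and 3 and 5.33, 4.36 and 4.29 in WT replicates 1, 2 and 3.

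WT replicate 1 stood alone above the other 5 arrays for cox1. Its replicate 1 difference was 0.09 within EBE-XVE and 1.01 within WT, and the pooled value of 0.55 ± 0.26 (SE) was not called (adjusted p = 0.280) and turned to -0.41 with centring and -0.36 with quantile normalisation. The cox1 gene was therefore the one member whose direction in replicate 1 depended on the scaling under both alternatives.

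Cytochrome c maturation, in which heme is moved across the inner membrane and attached to cytochrome c, was represented by 4 probe sets, of which 3 were lower and 1 was not called. The ccb206 gene, ccmB in the TAIR10.1 table, encodes a membrane subunit of the ABC transporter of this pathway. It read 2.44 in EBE-XVE replicate 1 and 2.43 in WT replicate 1, against 4.51 and 4.56 in EBE-XVE replicates 2 and 3 and 4.52 and 4.54 in WT replicates 2 and 3. The 2 genotypes were within 0.02 of each other at every replicate number, and the difference of -2.10 ± 0.12 (SE, adjusted p = 0.00114) was the most negative measured among the 23 probe sets. Its replicate 1 signals lay below the lower quartiles of their arrays, 2.67 in EBE-XVE and 2.64 in WT, so that its fold rests on dim signals and its exact size is uncertain. In the gene order ccmB is the neighbour of cox2, the member with the next most negative difference among genes other than nad1.

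The ccb382 gene (ccmFN1) encodes a part of the heme lyase that joins heme to apocytochrome c. It read 5.87 in EBE-XVE replicate 1 and 5.60 in WT replicate 1, against 6.96 and 6.71 in EBE-XVE replicates 2 and 3 and 6.83 and 6.80 in WT replicates 2 and 3. It was lower in replicate 1 of both genotypes, by -1.09 ± 0.18 (SE, adjusted p = 0.0150). The ccb203 gene (ccmFN2), another heme lyase part, read 1.67, 1.80 and 1.77 in EBE-XVE replicates 1, 2 and 3 and 1.66, 1.79 and 1.81 in WT replicates 1, 2 and 3, with a small difference of -0.12 ± 0.02 (SE, adjusted p = 0.00933).

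The remaining heme lyase gene, ccb452 (ccmFC), read 5.34, 5.74 and 5.94 in EBE-XVE replicates 1, 2 and 3 and 4.65, 5.98 and 6.03 in WT replicates 1, 2 and 3. Replicate 1 was lowest in both genotypes, by -0.50 within EBE-XVE and -1.35 within WT. The pooled difference of -0.93 ± 0.26 (SE) was not called as deposited (adjusted p = 0.0758) and was called with centring (-1.88) and with quantile normalisation (-1.80).

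The protein transport gene orfX, mttB in the TAIR10.1 table, encodes a TatC-like membrane protein. It read 1.91, 1.82 and 1.81 in EBE-XVE replicates 1, 2 and 3 and 1.90, 1.81 and 1.83 in WT replicates 1, 2 and 3, a difference of 0.09 ± 0.02 (SE, adjusted p = 0.0251) that was 0.16 with quantile normalisation and turned to -0.87 with the common shift of centring. The maturase gene matR, which lies in an intron of nad1 and serves group II intron splicing, read 2.02, 2.10 and 2.07 in EBE-XVE replicates 1, 2 and 3 and 2.00, 2.09 and 2.12 in WT replicates 1, 2 and 3. Its difference of -0.08 ± 0.02 (SE, adjusted p = 0.0907) was not called as deposited. Each of these genes spanned 0.11 over the 6 arrays.

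On all 6 arrays 7 of the 23 probe sets, for nad1 (257327_at and 257329_at), nad5 (both), ccb203, orfX and matR, lay below the lower quartile of their array, at 1.53 to 2.25. Their replicate 1 differences ran from -0.17 to 0.13, with 2 higher, 4 lower and 1 not called. A probe set can be in this group only if it was dim on every array, so the small differences are partly set by how the group was chosen. On both replicate 1 arrays a further 5 probe sets, for ccb206, nad9, nad4L, nad6 and nad1 (257325_at), also lay below the lower quartile. Differences of at least 2-fold that passed the test numbered 2 higher and 7 lower among the 23, against 19.2% higher and 1.53% lower among all probe sets.

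The replicate 1 difference had the same direction within both genotypes at all 23 probe sets. At nad1 257325_at it was only -0.04 within EBE-XVE and -0.006 within WT. The share of same directions over all probe sets was not counted, so this count is a description only. Both replicate 1 arrays lay wholly below the other 4 at 17 members and wholly above them at 4, against 18.3% and 52.3% of all probe sets. When EBE-XVE replicate 2, WT replicate 1 or WT replicate 2 was left out the calls of higher members numbered 2, and when WT replicate 1 was left out the calls of lower members numbered 10. Without the dependence of the variance on the signal in limma's prior, 2 members were higher and 8 lower, and the calls lost were those of nad1 (257323_at, 257327_at and 257329_at), nad5 (both), nad6, nad9, ccb203 and orfX. Of the dim ones, 257329_at, 257337_at, nad6 and orfX also lost their calls when replicate 1 or 2 of either genotype was left out, and 257338_s_at and ccb203 when WT replicate 1 was left out. In every fit without a replicate 1 or 2 array, a probe set's own spread did not enter its p-value. Calls lost there say little about stability.

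**Figure D2:**
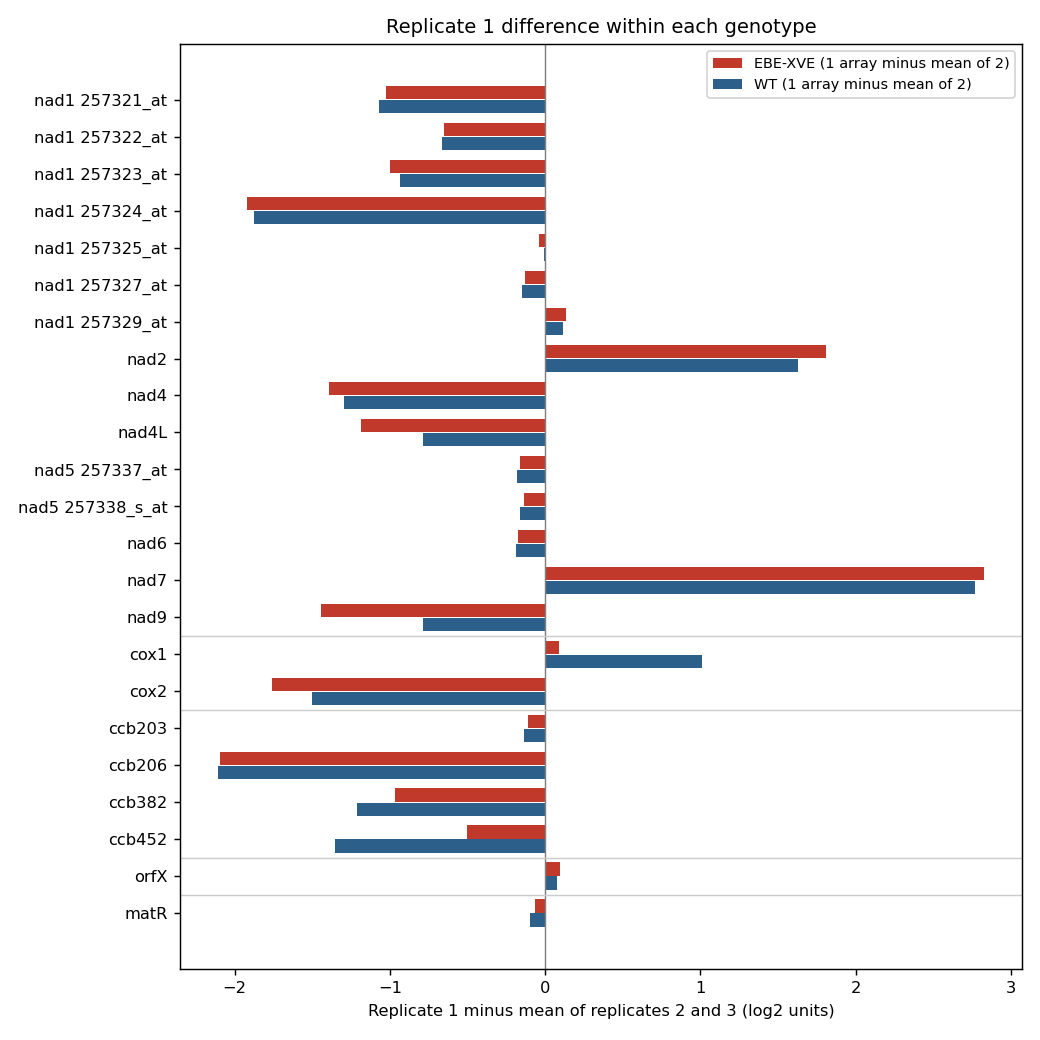
Replicate 1 minus the mean of replicates 2 and 3 (log2) for each of the 23 probe sets within EBE-XVE and within WT, on the same scale. The bars of the 2 genotypes point the same way for every probe set. Their lengths differ most for cox1 (0.09 within EBE-XVE, 1.01 within WT) and ccb452 (-0.50 within EBE-XVE, -1.35 within WT).

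The direction was set against that of the whole array under 3 scalings. As deposited, the median replicate 1 difference was -0.18 over the 23 members and 0.28 over all probe sets. With quantile normalisation the medians were -0.36 over the members and -0.05 over all probe sets, and with centring they were -1.14 over the members and -0.67 over all probe sets. The members' median thus differed from that of all probe sets by -0.46 as deposited and by -0.30 with quantile normalisation. Centring moves every probe set by the same amount and leaves that gap as it is. Under all 3 scalings 14 members were called lower and 2, nad7 and nad2, were called higher, against 7.85% lower and 5.6% higher among all probe sets. Centring lowers every replicate 1 difference, so a dim probe set that hardly changes tends to be called lower there. The 14 include the dim nad1 257327_at, both nad5 probe sets, nad6 and ccb203. These differed by -0.12 to -0.18 as deposited and by -0.03 to -0.24 with quantile normalisation, so their centred calls add little.

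Nuclear genes listed for complexes I to V were mostly higher in replicate 1 as deposited, unlike most mitochondrion-encoded members. Of 87 listed genes of complexes I to V, 50 had a probe set of their own, of which 35 were higher in replicate 1, 0 were lower and 15 were not called. Among all probe sets 34.2% were called higher and 8.22% lower, the shares to set beside this list and the nuclear lists below. The median difference of the 50 nuclear genes was 0.88, against -0.18 for the mitochondrion-encoded members. It was 0.33 with quantile normalisation and turned to -0.08 with centring. Of these complexes the members cover only I and IV, so the 2 medians do not describe the same complexes. For complex I alone the medians as deposited were 0.86 (nuclear) and -0.18 (mitochondrial). For complex IV they were 0.92 and -0.54, the latter from 2 probe sets of opposite sign. On the EBE-XVE replicate 1 array the nuclear genes had a median signal of 11.28, above the upper quartile of 8.06. The members' median there was 2.66, near the lower quartile of 2.67. Replicate 1 differed less from the other arrays at the lower quartile (2.67 and 2.64 against 2.50 to 2.57) than at the median (5.38 and 5.47 against 4.44 to 4.50). The part of signal level in this contrast was not tested. Most calls of the 50 nuclear genes were lost under the other scalings, with 6 higher and 1 lower with quantile normalisation and 2 higher and 4 lower with centring. Of all 22746 probe sets, 3491 were higher and 6206 lower with quantile normalisation, and 1925 were higher and 12606 lower with centring. Under those 2 scalings a call of higher was therefore no more frequent among the nuclear genes than over the array, and a call of lower was less frequent. Their median stayed above that of all probe sets, at 0.33 against -0.05 with quantile normalisation and at -0.08 against -0.67 with centring. By complex and as deposited, 16 of 20 genes of complex I, 3 of 4 of complex II (succinate dehydrogenase), 9 of 13 of complex III and cytochrome c, 5 of 8 of complex IV and 2 of 5 of complex V (ATP synthase) were higher and none was lower.

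For complex I the smallest p-values belonged to AT2G47690, at 1.59 ± 0.13 (SE, adjusted p = 0.00272), and AT5G52840, at 1.50 ± 0.16 (SE, adjusted p = 0.00513). For complex II they belonged to the iron-sulfur subunit genes SDH2-2, at 1.69 ± 0.22, and SDH2-1, at 1.44 ± 0.21 (SE). For complex III they belonged to AT4G32470, at 1.04 ± 0.14, and AT5G25450, at 1.29 ± 0.18 (SE). All of these remained positive with centring.

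For complex IV the genes with the smallest p-values were AT1G02410, at 1.45 ± 0.15, and AT1G80230, at 1.28 ± 0.17 (SE). For complex V they were AT4G29480, at 1.36 ± 0.18, and AT1G51650, at 0.72 ± 0.17 (SE, adjusted p = 0.0490), and AT1G51650 turned to -0.24 with centring. The alternative NAD(P)H dehydrogenases, which bypass complex I, gave 4 higher, 0 lower and 1 not called of 5 measured genes, led by NDB4 at 0.33 ± 0.02 and NDB1 at 1.19 ± 0.23 (SE). NDB4 was at 0.37 with quantile normalisation and turned to -0.62 with centring, and with quantile normalisation 1 of the 5 was higher and 1 lower.

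The single measured nuclear gene of cytochrome c maturation, CCMH, was lower in replicate 1, at -0.98 ± 0.14 (SE, adjusted p = 0.00973), as were 3 of the 4 mitochondrial genes of that pathway. Of 8 measured genes for mitochondrial RNA expression, 1 was higher, 2 were lower and 5 were not called. The lower ones were AT5G04050, at -0.38 ± 0.03, and AT5G15700, at -0.65 ± 0.10 (SE). The mitochondrial stress list had 3 measured genes and none passed, with AT2G21640 at -0.49 ± 0.22 and AT5G51440 at 0.38 ± 0.26 (SE).

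Genes of the plastid, the other organelle with a genome, were set beside them. Of 69 plastid-encoded probe sets, 44 were lower, 1 was higher and 24 were not called as deposited, against 8.22% lower and 34.2% higher among all probe sets. Their median was -1.74 as deposited, -2.38 with quantile normalisation and -2.69 with centring. The difference between plastid-encoded and mitochondrion-encoded genes was not tested.

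**Figure D3:**
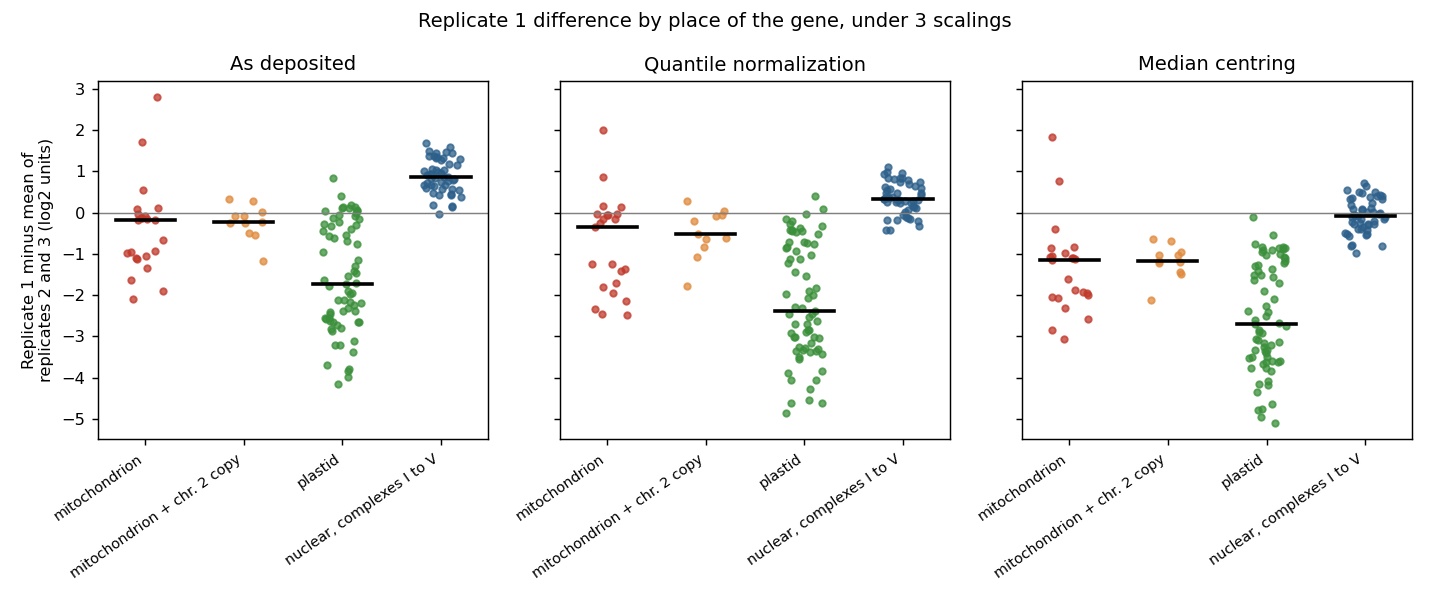
Replicate 1 minus the mean of replicates 2 and 3 (log2) for each gene of 4 groups under the 3 scalings, 1 point per probe set. Mitochondrion-encoded probe sets have medians of -0.18 as deposited, -0.36 quantile normalised and -1.14 centred, below the nuclear genes of complexes I to V (0.88, 0.33 and -0.08) and above the plastid-encoded ones (-1.74, -2.38 and -2.69).

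The comparison the study was built for, EBE-XVE against WT, gave no called mitochondrial probe set. In a limma fit of genotype over all 6 arrays, 0 of the 23 members and 0% of all 22746 probe sets passed an adjusted p of 0.05. Before adjustment, 0 members and 79 probe sets in all had a p under 0.05. This fit holds no replicate term, so the replicate 1 difference stays in the spread between arrays. The induced gene EBE was itself not called, so the lack of calls does not show that the genotypes were alike. The median EBE-XVE minus WT difference over the members was 0.005 and the range ran from -0.46 to 0.46. The replicate numbers were treated as pairing the arrays, which these data bear out for replicate 1 only. In their deviations from the genotype means, replicates 2 and 3 correlated as highly crosswise (0.55 and 0.60) as within a number (0.54 and 0.58). With the replicate number as a block 0 members and 0% of all probe sets again passed, with 1 member and 462 probe sets under 0.05 before adjustment.

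Of the 23 members, 15 differed by -0.07 to 0.07 between genotypes. Among these were nad7 and ccb206, whose pairs of equal replicate number differed by 0.03, 0.02 and -0.07 for nad7 and by 0.01, -0.01 and 0.02 for ccb206 in replicates 1, 2 and 3. The other 8 were nad1 (257323_at and 257324_at), nad4L, nad9, cox1, cox2, ccb382 and ccb452.

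The largest positive difference was that of nad9, with a mean of 3.45 ± 0.99 in EBE-XVE and 2.98 ± 0.46 in WT (SD, n = 3 each). Its difference was 0.46 ± 0.53 (SE, limma, adjusted p = 1.0), and the pairs differed by 0.03, 0.20 and 1.17 in replicates 1, 2 and 3. EBE-XVE replicate 3 was the array whose EBE signal was close to WT. With it left out, the difference was -0.04 without a replicate term, where replicate 1 weighs unevenly on the 2 genotypes. With the replicate block and the same array left out, a fit chosen after seeing the data, it was 0.11.

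The other high value was nad4L, at 0.30 ± 0.40 (SE), which was above WT in every pair, by 0.03, 0.32 and 0.54 in replicates 1, 2 and 3. It was the one member under 0.05 before adjustment with the replicate block, at 0.30 ± 0.11 (SE, limma adjusted p = 1.0). The most negative difference was that of cox1, at -0.46 ± 0.35 (SE), with pairs at -1.07, -0.22 and -0.07 in replicates 1, 2 and 3. It was the one member of 23 whose genotypes did not overlap, against 1.38% of all probe sets, and it was not called (limma adjusted p = 1.0).

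The cox2 probe set averaged 5.84 ± 1.03 in EBE-XVE and 5.61 ± 0.87 in WT (SD, n = 3 each), a difference of 0.22 ± 0.68 (SE). The remaining differences were 0.30 ± 0.46 at nad1 257323_at, 0.22 ± 0.78 at nad1 257324_at, 0.10 ± 0.48 for ccb382 and 0.12 ± 0.46 for ccb452 (SE). For cox2, ccb382, ccb452 and both of these nad1 probe sets the sign turned when 1 array was left out. The sign of nad4L and cox1 did not turn, but their size moved. For nad4L it moved between 0.03 (EBE-XVE replicate 3 left out) and 0.70 (EBE-XVE replicate 1 left out). For cox1 it moved between -0.12 (WT replicate 1 left out) and -0.64 (WT replicate 3 left out). Those fits hold no replicate term, so leaving out 1 array sets replicate 1 unevenly against genotype, and they cannot decide a direction. By pair, cox2 differed by 0.05, 0.23 and 0.39 and nad1 257324_at by 0.19, 0.005 and 0.46 in replicates 1, 2 and 3. The pairs of nad1 257323_at, ccb382 and ccb452 did not share 1 sign. None of these members was called.

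By pair, 21, 16 and 8 of the 23 members were above WT in replicates 1, 2 and 3, with member medians of 0.02, 0.01 and -0.03. Of all 22746 probe sets, 16325, 15379 and 6454 were above WT in the same pairs, so the counts fell from pair 1 to pair 3 across the array too. The medians over all probe sets were 0.03, 0.01 and -0.05 in the same pairs. The members' medians were within 0.02 of them. The array labelled EBE-XVE replicate 3 was the highest of the 6 at 8 members, and WT replicate 1 the lowest at 16. These 2 counts were not made over all probe sets.

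**Figure D4:**
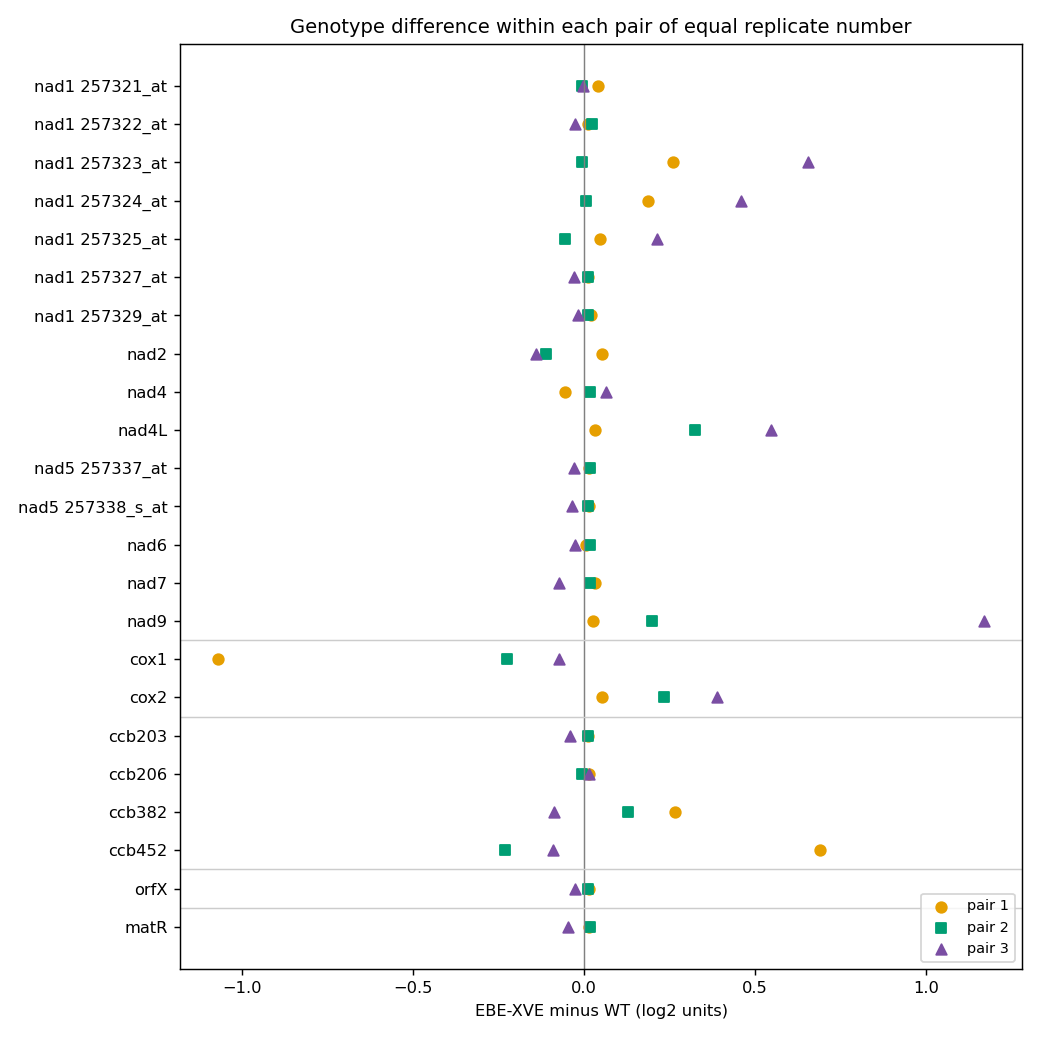
EBE-XVE minus WT (log2) for each of the 23 probe sets in the pairs of replicates 1, 2 and 3. Most points lie near 0, and the ones farthest from it are nad9 in replicate 3 (1.17) and cox1 in replicate 1 (-1.07).

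Nuclear genes of the mitochondrion gave no genotype call either, in 0 of 67 measured genes of the 9 lists, and 0 had an unadjusted p under 0.05. The smallest p-value was that of AT5G51440 in the stress list, at 0.58 ± 0.30 (SE, limma, unadjusted p = 0.10), and AT5G09570 of the same list differed by 0.27 ± 0.30 (SE). In the lists of complexes I to V the smallest p-values belonged to GLDH (0.17) and AT5G18800 (0.15) for complex I. They belonged to SDH1-1 (0.26) and SDH2-1 (0.24) for complex II, and to AT1G15120 (-0.07) and CYTC-2 (0.18) for complex III and cytochrome c. They belonged to AT5G61310 (0.12) and AT2G47380 (0.15) for complex IV and to AT5G47030 (-0.07) and AT2G19680 (0.07) for complex V. CCMH differed by 0.05, NDC1 by -0.09, NDB3 by -0.01, OTP87 by 0.23 and OSB1 by 0.30.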

How the data were processed

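Total RNA of 6 shoot samples was hybridised to Affymetrix ATH1 arrays. The deposited table holds 1 value per probe set and array. GCRMA and RMA are listed, with neither version nor role, per the submitters' processing notes, and the values were read as log2 from their range, since the deposited table states no log base. Of 22810 probe sets, 64 controls were left out. The platform annotation gives 1 symbol to 13513 of the other 22746, several to 503 and none to 8730. The 23 members, the gene lists and the tests were chosen with earlier results of these data known.

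Differences were tested with limma 3.58.1 in R 4.3.3 (lmFit, eBayes with trend, Benjamini-Hochberg over 22746 probe sets), fitting genotype alone (4 residual degrees of freedom) or genotype plus replicate number (2). The fits were also run on simulated data. For the genotype fit these data held no replicate 1 shift, so that run cannot show how the fit does on these arrays. Deviations from the genotype means correlated at 0.79, 0.54 and 0.58 between arrays of equal number, and the numbers were treated as pairing. Arrays 2 and 3 correlated as highly crosswise, at 0.55 and 0.60, so their matching rests on the titles alone. P-values measure the spread between these samples, and 3 arrays per genotype limit the precision. All members were described, and from each nuclear list (1 probe set per locus, highest mean) the 2 genes with the smallest p of each test. Alternatives were quantile normalisation, median centring, dim probe sets left out (mean signal under the 40th percentile, 3.38), no variance trend, a robust prior, no genotype term, a replicate block and arrays left out. No 2 arrays were identical.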

Additional observations from a re-analysis of the deposited data

How the results depend on the processing

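The replicate 1 direction of the mitochondrion-encoded members depended on the scaling for cox1 (-0.4077 centred, -0.3552 quantile normalised), nad1 257329_at (-0.8311 centred) and orfX (-0.8681 centred). The members' median replicate 1 difference was -0.9645 without dim probe sets, -1.1361 centred and -0.3552 quantile normalised, and between -0.1892 and -0.1704 with 1 array left out. Members called higher numbered 2 without dim probe sets, without the variance trend and with centring, and members called lower 7 without dim probe sets and 8 without the trend. With 1 array left out they numbered 2 to 4 higher and 10 to 15 lower, and nad1 257325_at ran from -0.0778 to 0.0318. Over all probe sets, calls higher in replicate 1 numbered 1925 centred and 3491 quantile normalised, and calls lower 442 without dim probe sets, 685 without the trend, 12606 centred and 6206 quantile normalised. With 1 array left out they numbered 6917 to 8266 higher and 1297 to 3647 lower. For the nuclear lists, calls higher numbered 25 without the trend, 3 centred, 7 quantile normalised and 26 to 44 with 1 array left out, and calls lower 5 with the robust prior, 17 centred, 8 quantile normalised and 3 to 6 with 1 array left out. Fewer probe sets are tested when dim ones are left out, and the cause of the other changes was not tested.

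For EBE-XVE against WT, the replicate block gave 0 calls over all probe sets, as did every single array left out. Replicates 2 and 3 alone, chosen after seeing the data, gave 3 calls lower in EBE-XVE, none of them a member, and turned ccb452 to -0.162. The block with EBE-XVE replicate 3 left out, also chosen after seeing the data, gave 0 calls, with 5 of 23 members and 11.5% of all probe sets at an unadjusted p under 0.05. Those 5 were nad1 257327_at, nad5 257338_s_at, ccb203, orfX and matR, which lay below the lower quartile on every array. They differed by only 0.0116 to 0.0161 between genotypes in that fit. The members' median was 0.0324 with centring and -0.0573 to 0.0805 with 1 array left out. Leaving out 1 array, genotype differences ran from -0.0206 to 0.6356 at nad1 257323_at, from -0.4071 to 0.8562 at nad1 257324_at, from -0.0433 to 0.9457 for nad9, from -0.2758 to 0.812 for cox2, from -0.3014 to 0.4236 for ccb382, from -0.3287 to 0.3593 for ccb452, from 0.0349 to 0.6961 for nad4L and from -0.6442 to -0.12 for cox1. These fits hold no replicate term, so each range also holds part of the replicate 1 difference. The 15 members within -0.07 to 0.07 changed sign in 70 of 200 alternative values and were called in 0. A fit with 1 array left out has 1 residual degree of freedom for replicate number. In 4 of the 6 such fits, all but those without a replicate 3 array, limma's prior carried all the weight and a probe set's own spread did not enter its p-value, so calls there say little about stability. The array left alone at its replicate number was assumed to vary like the others.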

Other observations

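A further 11 probe sets list a mitochondrial gene together with a gene of the mitochondrial insertion on chromosome 2, and their signal cannot be assigned to either. In replicate 1 against replicates 2 and 3, 1 of them was higher, 3 were lower and 7 were not called in the limma fit, with differences from -1.17 to 0.33. Their median was -0.22 as deposited, -0.51 with quantile normalisation and -1.18 with centring.

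Of the 23 members, 5 are probe sets that the array design marks as shared by several transcripts (suffix _s_at), for matR, orfX, ccb452, nad6 and nad5 (257338_s_at). Which of the 23 would also bind RNA of the chromosome 2 insertion was not tested.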
